A study of Mus musculus with 13 samples.

Results

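Umod encodes uromodulin, the most abundant protein of normal urine, and Egf encodes the precursor of epidermal growth factor. Single nuclei ATAC-seq (snATAC-seq), which reads in each nucleus which stretches of DNA are open, was used here to follow both genes across the cell types of the developing and adult mouse kidney. The members were chosen by position, as every peak over the gene body of Umod or Egf or within 50 kb of its start, which gave 59 of the 300755 peaks of the study, 18 at Umod and 41 at Egf. The samples were whole kidneys of mice at postnatal day 0 (P0, 2 samples, taken from neonates 1 day old), at 3 weeks (P21, 1 sample) and at 8 weeks (P56, 2 samples). P21 and P56 were treated together as adult, as in the study, and printed apart. The mice carried no treatment or engineered allele that the labels name. Their sex and, for the snATAC-seq mice, their strain are not given in the sources used here (the methods name wild type and C57BL/6 for the mice of the single-cell RNA arm). Nothing says that the samples came from separate animals, so that the p-values below measure the spread between these samples.

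The files held 28316 nuclei, 3361 to 7129 in a sample, of which 27652 lay in the 13 main clusters named by the study and 664 lay outside them. The clusters were nephron progenitors (NP), podocytes (Podo), proximal convoluted tubule (PCT), proximal straight tubule (PST), the loop of Henle cluster (LOH), the distal convoluted and connecting tubules (DCT and CNT), collecting duct principal and intercalated cells (PC and IC), endothelial cells (Endo), immune cells and 2 stromal clusters. PCT and PST are the clusters deposited as PT and PT2, and the start peak of Kap, a marker of PST, was open in 14.8% and 43.4% of PST nuclei of the P56 samples against 1.79% and 0.957% of PCT nuclei. The clusters had been made from the open chromatin of the same nuclei and named partly from Umod itself. LOH held 635 and 652 nuclei at P0, 394 at P21, and 1042 and 905 in the P56 samples, and DCT held 51, 57, 101, 307 and 434 in the same order. The median LOH nucleus had 6567 and 7430 open peaks at P0, 3084 at P21, and 2496 and 4477 in the P56 samples, so shares of open nuclei were given beside a depth-scaled level, the open calls at a peak per 1000000 open calls of that cluster in that sample (CPM). Barcodes were shared as well: 477 occurred in more than 1 library.

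Uromodulin is made by the epithelium of the thick ascending limb, the diluting part of the loop of Henle, where it is held in the apical membrane by a lipid anchor, cut free by the protease hepsin and shed into the urine. Pro-EGF is a membrane protein made by the thick ascending limb and the distal convoluted tubule, and EGF released from it acts on EGFR and raises magnesium uptake through the channel TRPM6. Both genes are textbook products of the distal nephron, and inherited changes in UMOD cause a tubulointerstitial kidney disease.

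Umod (ENSMUSG00000030963.6) lies on the minus strand of mm10 (GRCm38) at chr7:119462711-119479282, a gene body of 16572 bp. Its 18 peaks were 213 to 1850 bp wide, with 3 over the gene body, 10 upstream and 5 downstream of it. Egf (ENSMUSG00000028017.7) lies on the minus strand at chr3:129677565-129755316, a gene body of 77752 bp, and 25 of its 41 peaks lay over the gene body and 16 upstream, with widths of 201 to 1471 bp. Peaks are called below by their distance from the gene's start. Since their widths differ, a share at one peak is not a level to set against that of another peak. The Umod start peak (chr7:119479144-119479909) covers exon 1, and the peaks 2.1 kb and 9.6 kb downstream lie over exons 3 and 4 and over exon 7. The widest peak of the locus, 17.5 kb downstream of the start (chr7:119460861-119462710), ends 1 base before the far end of Umod and lies between genes, as does the peak 5.3 kb upstream (chr7:119484303-119484791). From 11.2 kb upstream on, the Umod window runs into the neighbouring genes Pdilt and Acsm5. On the downstream side the start of a further neighbour, Gp2, lies in a peak of this window. Which gene a peak of the window acts on was not tested. At Egf, the start peak (chr3:129754261-129755731) covers exon 1 and an exon of the antisense gene 6330410L21Rik, the peak 12.2 kb upstream (chr3:129767034-129767961) lies between genes, and a peak 30.0 kb downstream (chr3:129724948-129725736) covers exon 6 and 3 internal starts annotated there.

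Below are the 250 bases before each start (for Egf the start in RefSeq, 6 bases upstream of that in GENCODE) and the middle 300 bases of the peaks 5.3 kb upstream and 17.5 kb downstream of Umod and 12.2 kb upstream of Egf, the regions on which the results turn. They were read from mm10 on the minus strand, 5′ to 3′, and capitals mark a match to the AP-2 motif, the only match among the 5 motifs searched (GCCNNNGGC for AP-2, TTAATNATT for the HNF1 core, TCAAGGTCA for estrogen-related receptors, TGTTTAC for forkhead factors and CAAAGTCCA for HNF4, on both strands).
Umod upstream of the start, chr7:119479283-119479532: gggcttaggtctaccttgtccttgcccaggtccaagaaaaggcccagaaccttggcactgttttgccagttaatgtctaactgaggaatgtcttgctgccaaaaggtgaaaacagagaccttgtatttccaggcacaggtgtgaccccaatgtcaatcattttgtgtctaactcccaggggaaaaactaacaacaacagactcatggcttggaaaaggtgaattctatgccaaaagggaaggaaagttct
Umod 5.3 kb upstream, chr7:119484397-119484696: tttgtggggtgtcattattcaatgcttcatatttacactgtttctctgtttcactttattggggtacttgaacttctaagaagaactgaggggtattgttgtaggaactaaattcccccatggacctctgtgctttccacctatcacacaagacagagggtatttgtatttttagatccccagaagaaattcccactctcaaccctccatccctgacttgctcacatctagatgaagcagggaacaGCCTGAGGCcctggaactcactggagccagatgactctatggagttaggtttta
Umod 17.5 kb downstream, chr7:119461635-119461934: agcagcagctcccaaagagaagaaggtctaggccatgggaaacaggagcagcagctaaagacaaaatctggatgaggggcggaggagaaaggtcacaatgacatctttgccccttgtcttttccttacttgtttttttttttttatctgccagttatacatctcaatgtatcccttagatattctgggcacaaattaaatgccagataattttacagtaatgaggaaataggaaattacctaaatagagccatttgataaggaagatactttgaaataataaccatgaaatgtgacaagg
Egf upstream of the start, chr3:129755323-129755572: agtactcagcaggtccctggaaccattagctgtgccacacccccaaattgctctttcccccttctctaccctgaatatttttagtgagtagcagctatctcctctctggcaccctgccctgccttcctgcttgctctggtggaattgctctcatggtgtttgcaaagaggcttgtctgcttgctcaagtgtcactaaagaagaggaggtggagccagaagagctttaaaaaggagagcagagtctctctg
Egf 12.2 kb upstream, chr3:129767347-129767646: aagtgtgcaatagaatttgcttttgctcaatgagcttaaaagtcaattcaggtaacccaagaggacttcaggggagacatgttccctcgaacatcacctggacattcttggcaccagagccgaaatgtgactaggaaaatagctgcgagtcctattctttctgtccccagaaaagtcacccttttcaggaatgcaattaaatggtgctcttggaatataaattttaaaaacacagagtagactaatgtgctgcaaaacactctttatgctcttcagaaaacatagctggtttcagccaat

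These letters held 38.3% G and C in the Umod peak 17.5 kb downstream, 40.7% in the Egf peak 12.2 kb upstream, 43.7% in the Umod peak 5.3 kb upstream, and 45.6% and 50.4% before the Umod and Egf starts. In the middle 300 bases of the 59 member peaks, 12 held any of the 5 motifs. AP-2 letters stood in 2 Umod and 3 Egf peaks, against 8.99% of the 300693 peaks on assembled chromosomes. The HNF1 core stood in no Umod peak and in the Egf peaks 21.3 and 42.1 kb upstream (2.46% of peaks), the estrogen-related receptor site in the Egf peak 26.7 kb upstream (0.853%), forkhead letters in 3 Egf peaks (5.1%) and the HNF4 site in the Umod peak 28.5 kb downstream (0.809%). A match describes letters in these windows and no more.

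The Umod start peak was open in few LOH nuclei at birth and in many in the adult. It was open in 4.88% and 8.13% of LOH nuclei at P0 (95% Wilson intervals 3.46 to 6.85% and 6.27 to 10.5%), in 25.1% at P21 (21.1 to 29.6%), and in 16.7% and 40.9% at P56 (14.6 to 19.1% and 37.7 to 44.1%). All 3 adult samples lay above both P0 samples, and the P56 samples differed from each other by more than their intervals, which cover counting error only. On the depth-scaled measure the LOH values were 7.32 and 10.5 CPM at P0, 63.3 at P21, and 61.3 and 84.4 in the P56 samples, so the P56 samples lay closer together. With each nucleus thinned to 1000 open peaks, the LOH shares at the start were 0.656% and 0.936% at P0 and 6.15%, 6.22% and 7.90% in the P21 and P56 samples. With open calls summed over the LOH nuclei of each sample, the adult level was 9.0-fold above P0 in the fit over all peaks (log2 fold change 3.17 ± 0.28, SE, edgeR quasi-likelihood test with Benjamini-Hochberg adjustment, adjusted p = 2.7704e-09).

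The start peak was not open in LOH alone, and the paper also reports an accessible Umod start in several tubule cell types. The paper ties the cell type pattern of Umod to an upstream peak, which it calls a likely enhancer, without giving its distance in the text. Which of the upstream peaks here that is was not determined. In DCT it was open in 3.92% and 1.75% of nuclei at P0, 11.9% at P21, and 11.7% and 25.1% in the P56 samples. In PST, the last part of the proximal tubule, it was open in 13.3% and 10.7% at P0, 12.8% at P21, and 15.5% and 32.5% in the P56 samples. At P0 both PST shares were above both LOH shares, and in each adult sample the LOH share was the higher. PCT shares ran from 6.40% in a P0 sample to 15.2% in a P56 sample, and no endothelial share was above 2.32%. Among the clusters at P56, LOH, PST and DCT led by their mean share with 28.8%, 24.0% and 18.4%, and in P56 replicate 1 the LOH and PST shares lay within each other's intervals. PST nuclei were the deeper ones there, with a median of 5956 open peaks against 2496, and in CPM PST stood at 26.7 and 28.2 in the P56 samples against 61.3 and 84.4 in LOH.

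**Figure D1:**
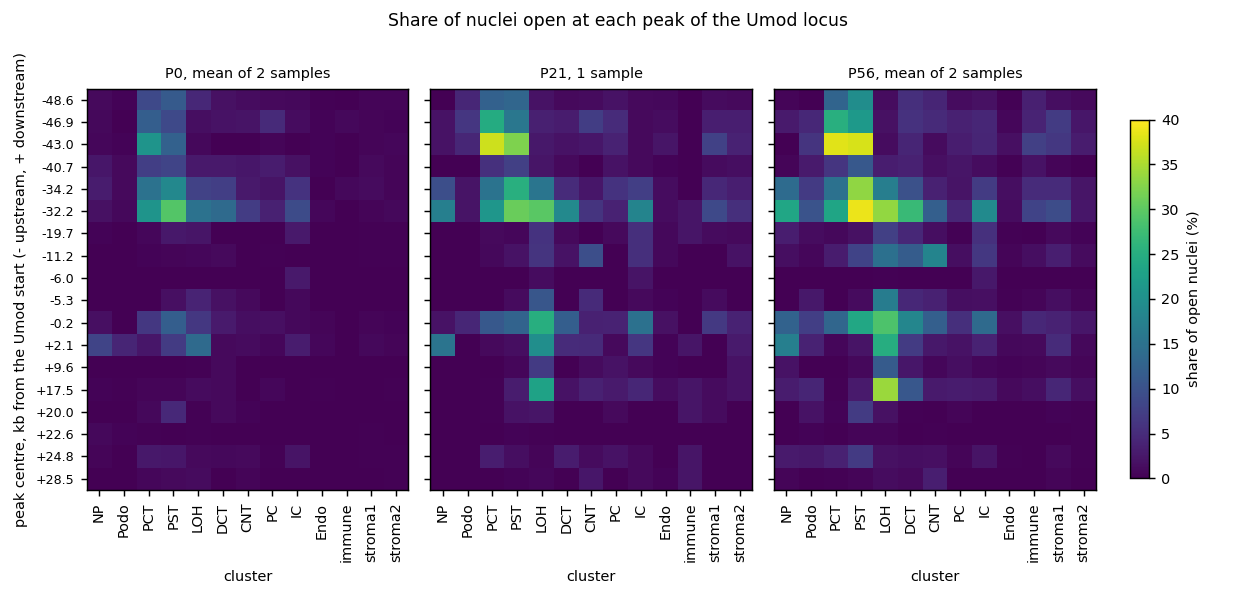
Share of open nuclei (%, colour) at the 18 peaks of the Umod locus (rows, kb from the start) in the 13 clusters (columns), for P0 (mean of 2 samples), P21 (1 sample) and P56 (mean of 2 samples). The peak 17.5 kb downstream stands out in the LOH column at P21 and P56, the start peak is also open in PST and DCT, and the peak 43.0 kb upstream is open in PCT and PST.

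The peak at the far end of Umod was nearly closed in P0 LOH and in PCT, and open in adult LOH. It was open in 1.1% and 1.38% of LOH nuclei at P0, 23.1% at P21 (Wilson interval 19.2 to 27.5%), and 22.4% and 45.6% in the P56 samples. In CPM these were 1.65 and 1.79 at P0 and 58.2, 82.1 and 94.2 in the adult samples, without overlap, and the adult level was 51.9-fold higher (log2 fold change 5.70 ± 0.36, SE, edgeR adjusted p = 1.6979e-11). PCT shares were at or below 0.718% in every sample. In DCT the share was 1.96% and 0.00% at P0, 1.98% at P21, 1.30% in P56 replicate 1 and 20.5% in P56 replicate 2, so 1 library carried the DCT mean of 10.9% at P56. In that library the start peak of Slc12a1, the sodium-potassium-chloride cotransporter gene that defines the thick limb, was open in 3.46% of DCT nuclei, against 0.651% in P56 replicate 1 and 0.00% at P21. What part other nuclei had in the DCT value was not tested.

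A further 3 peaks within or next to Umod followed the start peak in LOH to different degrees. The peak 5.3 kb upstream went from 2.99% and 4.91% at P0 to 10.7%, 8.93% and 24.6% in the P21 and P56 samples (8.01-fold in CPM, log2 fold change 3.00 ± 0.32, edgeR adjusted p = 3.1416e-08). The peak over exon 7 went from 0.315% and 0.307% to 6.85%, 5.37% and 17.5% (log2 fold change 5.98 ± 0.51, adjusted p = 1.4829e-09). The peak over exons 3 and 4 was open in 12.3% and 15.3% of LOH nuclei at P0 already and in 19.8%, 18.2% and 31.6% in the adult samples, a smaller rise (log2 fold change 1.88 ± 0.24). That peak was also open in the cluster named NP, in 8.04% and 8.36% of nuclei at P0 and in 15.4 to 18.9% of those of the adult samples. The adult nuclei of that cluster (52, 90 and 53) went against its name, with the Six2 start open in 0.00%, 0.00% and 1.89% of them against 35.3% and 43.1% at P0, and the Slc12a3 start open in 3.85%, 17.8% and 39.6%. That start is not particular to DCT: in P56 replicate 2 it was open in 45.8% of PCT, 53.0% of PST, 51.9% of LOH and 54.1% of DCT nuclei. The groups did not overlap at any of these 3 peaks.

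Farther upstream, in and near the neighbouring genes, other cell types had shares near or above those of LOH. At 11.2 kb upstream, in an intron of Pdilt, a peak was open in 0.00% of CNT nuclei in both P0 samples and in 9.64%, 11.9% and 24.1% in the P21 and P56 samples, beside 6.09%, 7.97% and 21.7% of adult LOH nuclei. Its LOH and CNT levels in the adult were not told apart (log2 difference 0.04 ± 0.17, SE). At 32.2 kb upstream, also in a Pdilt intron, PST had the higher share with 51.2% in P56 replicate 2 and 26.6% in replicate 1, beside 45.7% and 21.2% in LOH, but in CPM LOH was higher with 94.5 and 77.8 against 44.4 and 45.8 in PST. Over the 13 clusters at P56, this peak was the one most like the Umod start peak in its pattern (Pearson r = 0.93 of the log levels over 13 clusters that share their libraries). At 43.0 and 46.9 kb upstream, at Acsm5, a gene of the medium-chain acyl-CoA synthetase family, the pattern was proximal: the first was open in 53.0% of PCT and 47.6% of PST nuclei in P56 replicate 2, and in 1.88% of LOH nuclei. Its likeness to the start peak was -0.11 on the same measure.

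At Egf the start peak was again shared between LOH, PST and DCT. In LOH it was open in 5.98% and 7.67% of nuclei at P0, 19.8% at P21 (Wilson interval 16.2 to 24.0%), and 15.8% and 29.4% in the P56 samples. In CPM the P0 samples stood at 8.97 and 9.92 and the adult samples at 49.9, 58.1 and 60.7, with no overlap and a 6.86-fold difference (log2 fold change 2.78 ± 0.26, SE, edgeR adjusted p = 5.6451e-09). In PST it was open in 18.1% and 17.9% at P0, 14.7% at P21, and 16.4% and 27.6% in the P56 samples, and in CPM it stood at 18.2 and 20.1 at P0 and at 24.2, 28.3 and 24.0 in the adult samples. In CPM PST was thus above LOH in both P0 samples and below it in all 3 adult samples, although its share in P56 replicate 1 was the higher of the pair. DCT shares were 3.92% and 5.26% at P0 and 7.92%, 10.7% and 18.0% in the adult samples.

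**Figure D2:**
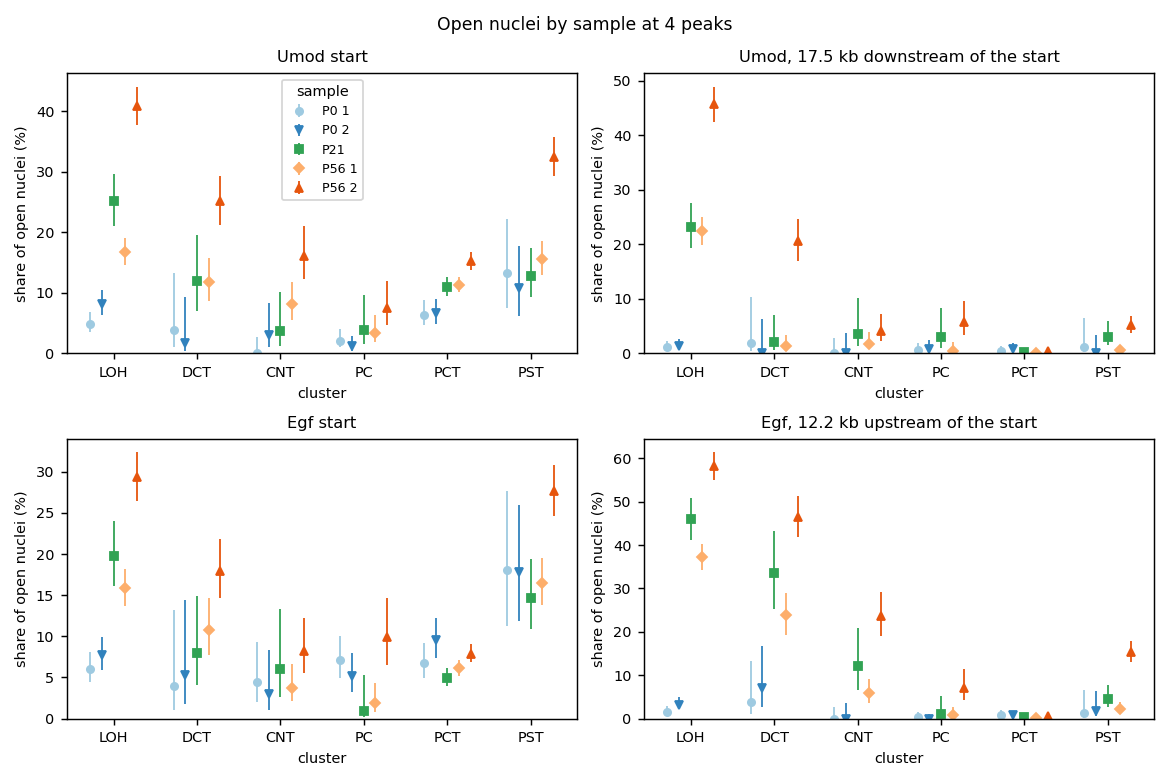
Share of open nuclei (%) with 95% Wilson intervals (bars, counting error only) in each of the 5 samples, at the Umod start peak, the peak 17.5 kb downstream of it, the Egf start peak and the peak 12.2 kb upstream of it, in LOH, DCT, CNT, PC, PCT and PST. LOH rises at all 4 peaks between P0 and the adult samples, while PCT stays at or below 0.731% at the Egf peak 12.2 kb upstream and at or below 0.718% at the Umod peak 17.5 kb downstream.

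The peak 12.2 kb upstream of Egf was open in many adult LOH nuclei and few P0 ones. It was open in 1.57% and 3.22% of LOH nuclei at P0, 45.9% at P21 (Wilson interval 41.1 to 50.9%), and 37.2% and 58.3% in the P56 samples. In CPM these were 2.36 and 4.17 at P0, 116 at P21, and 137 and 120.5 in the P56 samples, and adult LOH was 42.5-fold above P0 (log2 fold change 5.41 ± 0.31, edgeR adjusted p = 6.3211e-12). With each LOH nucleus thinned to 1000 open peaks and shallower nuclei left out (610, 641, 374, 997 and 899 were kept), the peak was open in 0.328% and 0.624% at P0 and in 15.2%, 15.0% and 12.5% of the P21 and P56 samples. The same peak was open in DCT, the cell type in which EGF acts on magnesium uptake. There it was open in 3.92% and 7.02% of nuclei at P0, 33.7% at P21 (25.2 to 43.3%), and 23.8% and 46.5% in the P56 samples. CNT, the next segment, had 0.00% in both P0 samples and 12.0%, 5.78% and 23.7% in the adult samples. In each adult sample the share was highest in LOH, lower in DCT and lower again in CNT, with overlapping intervals of LOH and DCT at P21, and PCT was at or below 0.731% in every sample.

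Over the 25 peaks of the Egf gene body, LOH had the highest mean share at 20 at P56, at 15 at P21 and at 2 at P0 (in CPM 22, 14 and 1, and thinned 19, 9 and 1). Over the whole Egf window LOH led 24 of the 41 peaks by mean share at P56, with PST at 7, Podo at 4 and DCT and the cluster named NP at 2 each, and at P21 it led 23 (15 thinned). At P0 LOH led 2 by share, 1 in CPM and 3 thinned. The cluster with most peaks at P0 changed with the measure, PST with 9 by share and Podo with 9 in CPM and 8 thinned. In the Umod window LOH led 6 of 18 peaks at P56 and PST, with its deeper nuclei, led 7, and LOH led 10 in CPM and 8 thinned. At P21 LOH led 7 Umod peaks by share, 8 in CPM and 3 thinned, where PST led 5, and at P0 it led 4, 4 and 3. Over the 3 peaks of the Umod gene body LOH led all 3 at P56 by each measure and at P21 by share and in CPM, but none at P21 with nuclei thinned. The clusters were made from these nuclei, so such counts describe them and are no test. Over the 41 Egf peaks, the number open in at least 5% of LOH nuclei was 4 at P0, 12 at P21 and 17 at P56, by the mean over the samples of a stage, and over the 18 Umod peaks it was 4, 9 and 9. In intron 11 of Egf, 40.1 kb downstream, the LOH share went from 2.36% and 2.30% at P0 to 10.4%, 7.29% and 19.2%, and in intron 1, 10.1 kb downstream, from 2.20% and 1.69% to 8.63%, 7.39% and 16.9%. At 2.3 kb upstream no LOH nucleus of the P0 samples was open, against 2.79%, 1.63% and 5.19% in the adult samples, which puts the adult level at least 26.4-fold higher with 3 counts over the P0 group as the floor.

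**Figure D3:**
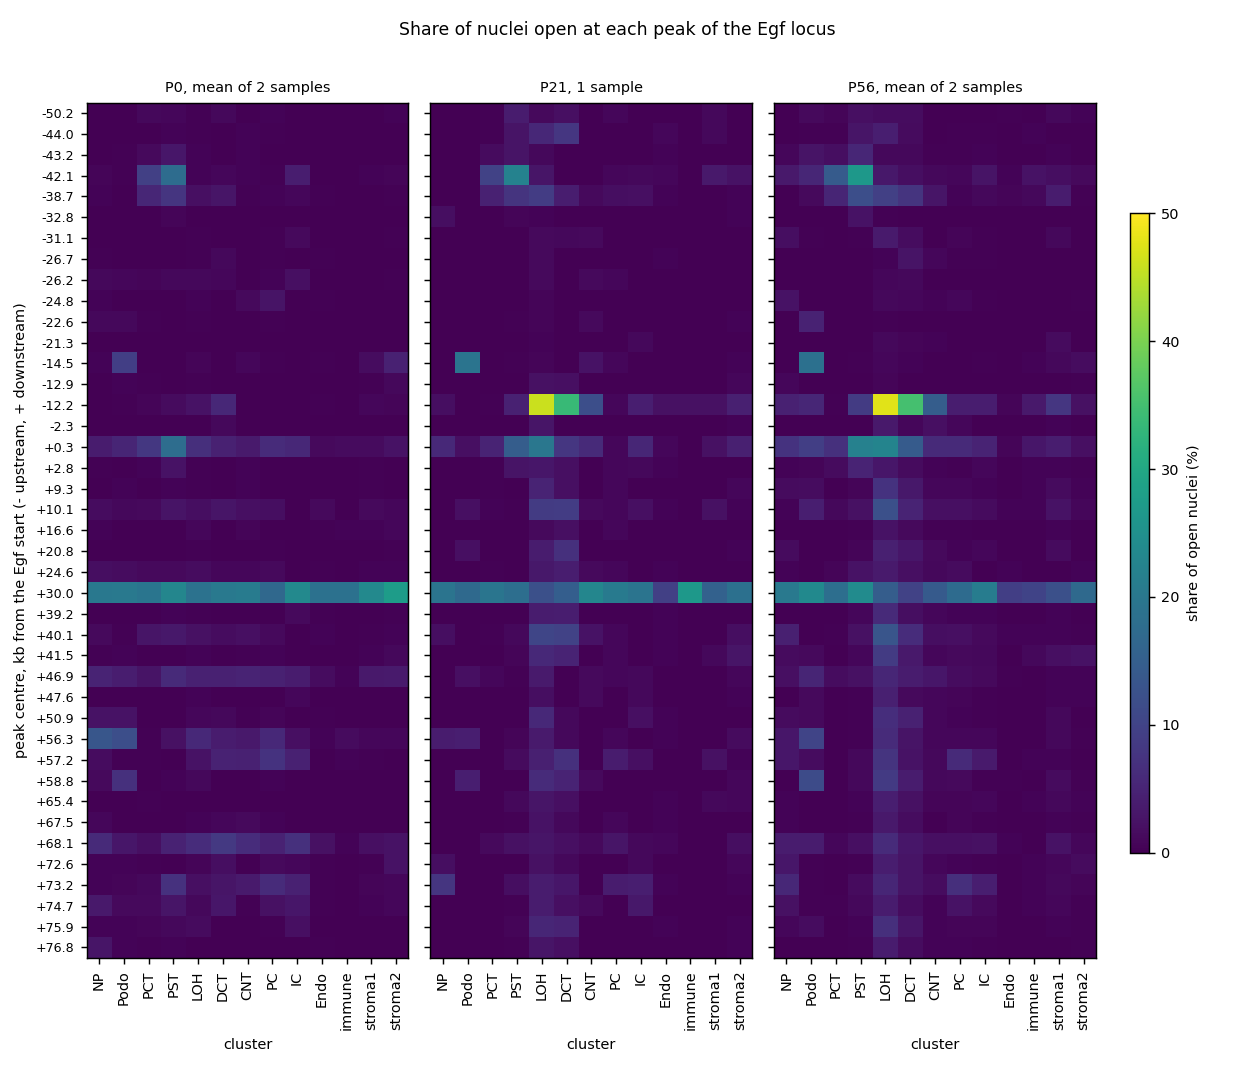
Share of open nuclei (%, colour) at the 41 peaks of the Egf locus (rows, kb from the start) in the 13 clusters (columns), for P0 (mean of 2 samples), P21 (1 sample) and P56 (mean of 2 samples). The peak 12.2 kb upstream is open in LOH, DCT and CNT of the adult stages, the peak 30.0 kb downstream is open in all clusters, and the peak 14.5 kb upstream is open in Podo.

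Other peaks of the Egf window belonged to other cell types. The peak over exon 6 with internal starts, 30.0 kb downstream, was open in all 13 clusters, from 5.54% of DCT nuclei in P56 replicate 1 to 35.9% of the 39 Podo nuclei in P56 replicate 2. In LOH it was open in 17.0% and 20.7% at P0 and 12.2%, 9.21% and 20.3% in the adult samples, which overlap. Its log2 fold change was 0.67 ± 0.24 (edgeR adjusted p = 0.019114), a call that was lost without P0 replicate 1, without P0 replicate 2 or without P56 replicate 2, and that turned to -0.057 with each nucleus thinned to 1000 open peaks. The peak 14.5 kb upstream was open in Podo, in 8.79% and 9.94% of nuclei at P0, 19.1% at P21, and 14.0% and 23.1% in the P56 samples, and in no other cluster above 4.89%. The peak 42.1 kb upstream, in an intron of Lrit3, was open in 39.8% of PST and 21.6% of PCT nuclei in P56 replicate 2, against 4.42% of LOH nuclei.

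In LOH most peaks of both windows were higher in the adult than at birth. Of the 59 members, 50 had enough counts to be tested in LOH, and 49 of them were higher in the adult (34 of 34 at Egf, 15 of 16 at Umod), where 24.4% of all peaks tested were called higher and 29.9% lower. A peak that passes the filter only through its adult counts had to differ, and without the filter 49 of all 59 were called higher, where 6.01% of all peaks were. Of these 49, 46 were also called with the filter. The exception among those tested was the peak 48.6 kb upstream of Umod, in Acsm5 (log2 fold change -0.53 ± 0.38). The calls 43.0 and 46.9 kb upstream of Umod (1.98 ± 0.55 and 1.59 ± 0.45), also at Acsm5, were lost without P0 replicate 2. Over the members that passed the filter, the median log2 fold change was 2.19 at Umod and 3.58 at Egf, beside -0.11 over all peaks tested and 0.18 over the peaks at starts of protein-coding genes. Counted by sample, every adult LOH value was above both P0 values at 15 of 18 Umod and 37 of 41 Egf peaks, against 10.7% of all peaks open in any LOH nucleus. The exceptions were the Umod peaks 24.8 and 22.6 kb downstream and 48.6 kb upstream and the Egf peaks 68.1 kb downstream and 12.9, 22.6 and 26.7 kb upstream.

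**Figure D4:**
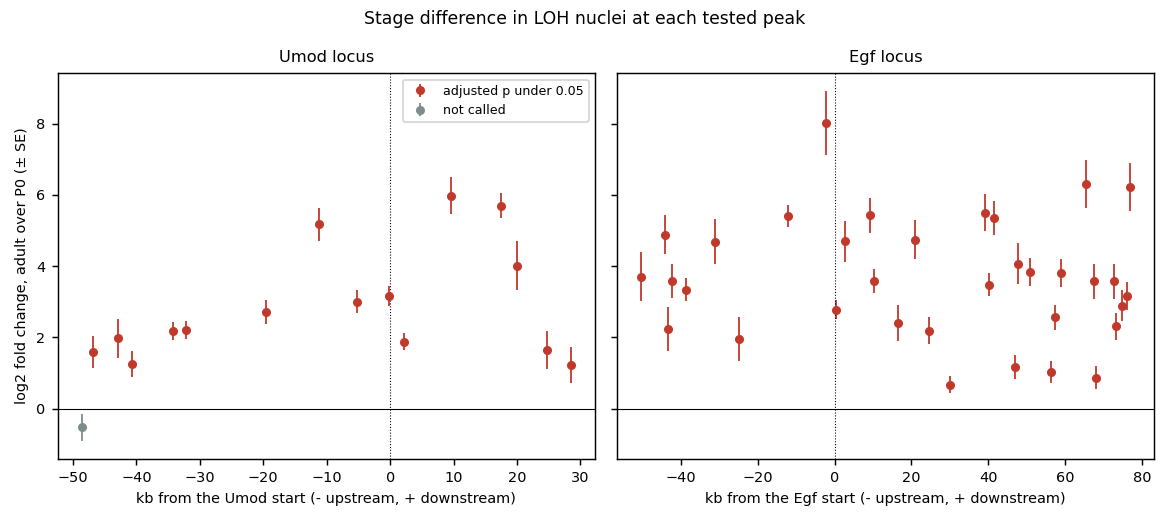
Log2 fold change (± SE) of adult (P21 and P56, 3 samples) over P0 (2 samples) in LOH at each tested member peak, against its distance from the start in kb, with called peaks in red and the others in grey. All tested Egf peaks and 15 of 16 tested Umod peaks lie above 0, and the Umod peak 48.6 kb upstream lies below it.

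Markers of other cell types changed in LOH as well. Of 24 marker peaks of the other clusters, 14 were higher in CPM in both P0 samples than in all adult samples. The share of all peaks with that order was not computed, so the count describes these markers only. By the fit, 29.9% of all peaks tested in LOH were called lower in the adult. The summed NP markers (Six2, Cited1 and Uncx, of the nephron progenitors) were at 46.2 and 55.2 CPM in the P0 LOH samples and at 7.53 to 14.8 in the adult ones, the endothelial markers Egfl7 and Kdr at 33.5 to 39.6 against 5.28 to 8.96, and the 2 podocyte markers at 8.02 to 11.3 against 1.14 to 2.47. The sum of the 3 DCT markers went the other way, from 24.8 to 30.0 at P0 to 74.2 to 111 in the adult. Pvalb and Trpm6 were lower, and Slc12a3, open in 8.03% and 11.2% of LOH nuclei at P0 and in 28.2%, 21.7% and 51.9% in the adult samples but also in PCT and PST, carried it. All 24 together stood at 169 in both P0 samples and at 125 to 154 in the adult ones. The 4 LOH markers (Slc12a1, Kcnj1, Cldn16 and Cldn10) summed to 62.1 to 69.3 at P0 and 195 to 216 in the adult. The part of these in the rise at Umod and Egf was not tested. In the adult samples the LOH label held on Slc12a1, whose start peak was open in 34.8% of LOH nuclei at P21 and in 16.6% and 43.2% at P56, against 0.00 to 3.46% in DCT, and on Cldn10 (9.12 to 19.1% against 0.00 to 1.84%). Cldn16 was open in 6.60 to 8.29% of adult LOH nuclei against 0.326 to 0.990% in DCT, but in 2.41 to 7.14% in CNT. The Kcnj1 start did not separate the clusters, with 23.6%, 19.96% and 34.1% in LOH of the P21 and P56 samples against 23.8%, 12.1% and 34.6% in DCT and 20.5%, 15.3% and 32.3% in CNT. At P0 the label was less clear on Slc12a1, with 8.82% and 14.1% in LOH against 7.84% and 7.02% in DCT, and with the Kcnj1 start open in 18.0% and 20.9% of LOH and in 33.3% and 22.8% of DCT nuclei. It held at P0 on Cldn10, with 10.7% and 12.0% in LOH against 1.96% and 1.75% in DCT. Cldn16 did not separate the clusters there, with 3.94% and 6.6% in LOH against 5.88% and 3.51% in DCT. The Six2 start was open in 14.5% and 13.3% of P0 LOH nuclei and in 0.864 to 1.78% of adult ones.

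**Figure D5:**
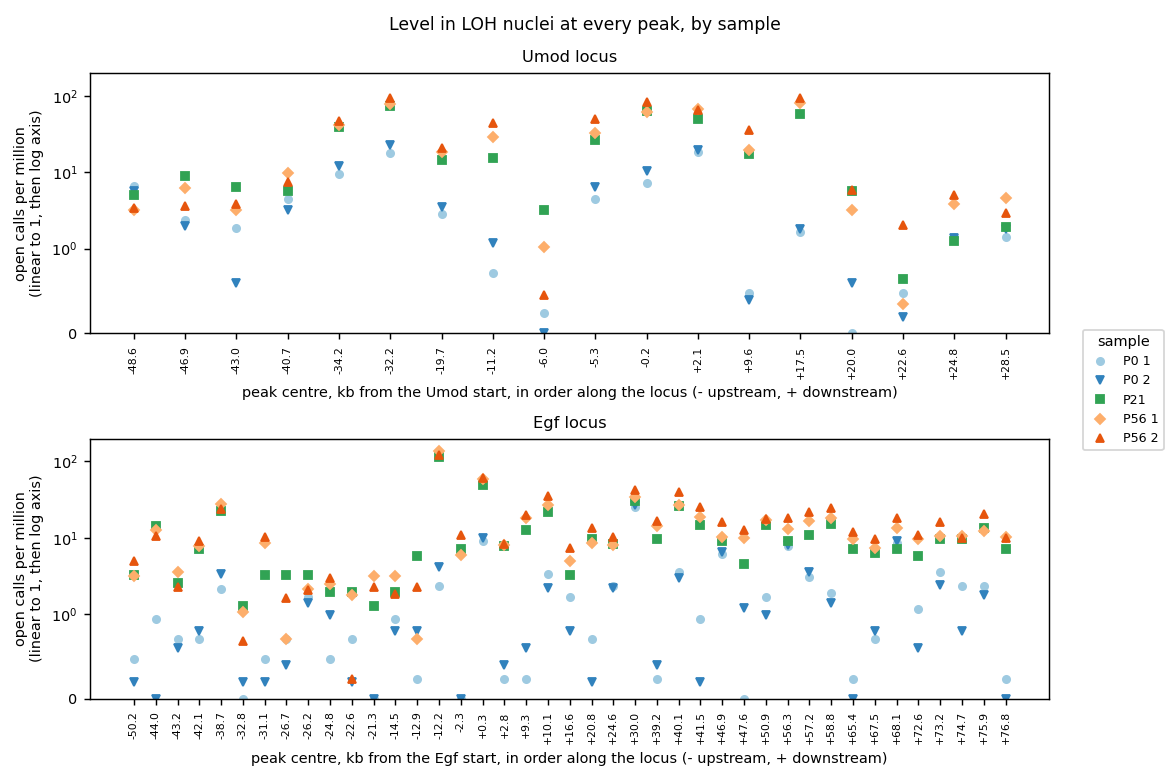
Level in CPM (open calls at the peak per 1000000 open calls) in LOH (symmetric log axis, linear below 1) at each member peak by sample. The 3 adult samples lie above both P0 samples at 15 of 18 Umod and 37 of 41 Egf peaks, and the Egf peak 12.2 kb upstream reaches 116 to 137 in the adult samples.

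In the other tubule segments fewer members could be tested. In DCT, where the P0 samples held 51 and 57 nuclei, 5 members were tested and 4 were higher in the adult (2.6% of all peaks tested in DCT). These were the Umod start (log2 fold change 3.09 ± 0.57, with 3 open P0 nuclei in all, a ratio of 10.6 with a counting interval of 3.55 to 51.7), the Umod peak 32.2 kb upstream (1.37 ± 0.32), the Egf start (2.01 ± 0.57, edgeR adjusted p = 0.04638) and the Egf peak 12.2 kb upstream (3.15 ± 0.38). The Egf peak over exon 6 was not called (-0.43 ± 0.40). With either P0 sample left out, 1 P0 sample remained, and calls became fewer both among the members and over all peaks. Without P0 replicate 2 neither start peak of the 2 genes was called.

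In CNT 3 of 7 tested members were higher (10.4% of all peaks). The Umod start peak was at a ratio of 12.9 over P0 (counting interval 4.25 to 64.2), and the Umod peak 11.2 kb upstream and the Egf peak 12.2 kb upstream, open in no P0 CNT nucleus, were at least 19.8-fold and at least 16.6-fold higher. The latter 2 passed the filter only through their adult counts and so had to differ. Without the filter 4 of 57 members were called higher in CNT, where 1.27% of all peaks were. The Egf start peak was not called there (0.93 ± 0.57). In PC 2 of 8 were higher (12.7% of all peaks), the Umod start (2.07 ± 0.57) and the peak 43.0 kb upstream (2.86 ± 1.02). That PC count was 0 without P0 replicate 1 (edgeR, 2 of 11 at an unadjusted p under 0.05), 0 without P0 replicate 2 (0 of 10), 4 without P56 replicate 1, and 1 without P21 or without P56 replicate 2, and DESeq2 on all samples called 1. Of all peaks 2.11% and 2.21% were called higher without P0 replicate 1 and 2. The shares higher were 12.3% without P21, 17.1% without P56 replicate 1 and 7.6% without P56 replicate 2. Without P21 or either P56 sample 1 member was called lower, the Egf peak 56.3 kb downstream, which was not tested with all samples. It was 1 of 9, 12 and 8 tested, where 15.5%, 17.8% and 9.96% of all peaks were lower, so this call says nothing particular of the member.

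In PCT 5 of 26 tested members were higher in the adult and 4 were lower, where 16.3% of all peaks were higher and 17.6% lower, so that these counts are near those of all peaks and say nothing particular of the members. Those that rose were the Umod start (1.32 ± 0.24), the peak 11.2 kb upstream (2.70 ± 0.71) and the 3 peaks at Acsm5 (1.20 ± 0.23, 1.41 ± 0.24 and 0.87 ± 0.22 from near to far). Those that fell were the Umod peak over exons 3 and 4 (-1.22 ± 0.43) and 3 Egf introns, 40.1, 73.2 and 74.7 kb downstream (-2.77 ± 0.47, -2.04 ± 0.66 and -2.08 ± 0.54). The peak 40.1 kb downstream was thus open in 3.66% and 1.97% of PCT nuclei at P0 and in 0.285 to 0.322% in the adult samples, the opposite of LOH. The Egf start was not called in PCT (0.00 ± 0.29). Fewer were called in either direction, among the members and over all peaks, with either P0 sample left out, when 1 P0 sample remained. Those lower were 1 of 20 without P56 replicate 2 (15.7% of all peaks) and 2 of 19 without P56 replicate 1 (21%).

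In PST 5 of 14 tested members were higher (9.04% of all peaks), among them the Umod start (0.98 ± 0.29) and the peaks 43.0 and 46.9 kb upstream (1.71 ± 0.28 and 1.39 ± 0.30). The Egf start was not called (0.36 ± 0.25). None was called without P0 replicate 1 (edgeR, 6 of 24 at an unadjusted p under 0.05) or without P0 replicate 2 (9 of 25), fits in which none of all 79305 and 77590 peaks was called either. Without P56 replicate 2, 3 of 11 were called higher (8.77% of all peaks), and DESeq2 on all samples called 3 of 14 higher (6.25%). Without P21 the Egf peak 73.2 kb downstream was called lower, where 8.8% of all peaks were.

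Whether the rise in LOH differed from that in another segment was tested as an interaction, chosen after the data had been seen. Against PCT, 27 of 50 tested members rose more in LOH (8.67% of all peaks), but 3 of 28 with nuclei thinned to 1000 open peaks, where 3.37% of all peaks did. The difference in log2 fold change was 1.76 ± 0.30 at the Umod start, 2.66 ± 0.31 at the Egf start and 5.98 ± 0.88 at the Egf peak 12.2 kb upstream. Against PST 13 of 48 rose more in LOH (2.28% of all peaks), with 1.80 ± 0.41 at the Umod start and 2.04 ± 0.37 at the Egf start. The count was 2 of 55 when either P0 sample was left out (0.372% and 0.337% of all peaks), when the Umod start was not called. It was 0 of 23 with nuclei thinned (edgeR, 2 at an unadjusted p under 0.05), where 0.0476% of all peaks were called. Against DCT none of 48 was called higher or lower by edgeR (5 at an unadjusted p under 0.05) or by DESeq2 (4 at that level), where edgeR called 0.957% of all peaks higher and 1.05% lower. Without P21, 1 of 46 was called lower, where 1.64% of all peaks were. The difference from DCT was -0.35 ± 0.73 at the Umod start and 0.32 ± 0.67 at the Egf start, with standard errors too wide to bound the difference to 1 log2 unit. Against CNT 6 of 42 were higher (2.63% of all peaks) and 1 lower (2.42%). The count of 6 became 0 without P0 replicate 1 (edgeR, 7 of 45 at an unadjusted p under 0.05), 1 without P0 replicate 2, 2 without P56 replicate 2 and 1 with DESeq2. The shares of all peaks fell there as well, to 0.192%, 0.734%, 1.31% and 0.173%. The lower call was the same in the contrasts with PCT, PST and CNT, which share the LOH samples: the peak 48.6 kb upstream of Umod, at -1.53 ± 0.43 against PCT (10.8% of all peaks lower), -1.75 ± 0.54 against PST (5.08%) and -2.73 ± 0.89 against CNT. It was lost in each of them without either P0 sample, without P56 replicate 2, with DESeq2 or with nuclei thinned, and in the one with CNT also without P56 replicate 1. In the contrast with CNT the Umod start gave -0.46 ± 0.72 and the Egf start 1.52 ± 0.60, neither called.

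Set against other segments within the adult samples, most members stood higher in LOH. The count was 47 of 55 tested against PCT (31.6% of all peaks higher in LOH), 37 of 48 against PST (30.1%), 37 of 48 against DCT (14.1%) and 38 of 42 against CNT (17.8%). A peak that passes the filter only through its LOH counts had to differ. Without the filter 50 of 59 were higher against PCT (9.45%) and 43 of 59 against PST (8.43%). Against DCT 29 of 59 were (2.2%), and against CNT 43 of 59 (4.95%). Because the clusters were defined on these nuclei, these fits rank the peaks. The LOH excess at the Umod start was 1.62 ± 0.13 over PCT, 1.49 ± 0.17 over PST, 0.96 ± 0.12 over DCT and 1.71 ± 0.15 over CNT on the log2 scale. At the Egf start it was 2.28 ± 0.15, 1.20 ± 0.17, 0.98 ± 0.14 and 2.24 ± 0.19. The peaks away from the starts spread wider: over PCT the Umod peak 17.5 kb downstream stood at 7.44 ± 0.22 and the Egf peak 12.2 kb upstream at 7.54 ± 0.18, while over DCT the values were 1.92 ± 0.14 and 0.68 ± 0.09. At that Umod peak the DCT share was 1.98% at P21, 1.30% in P56 replicate 1 and 20.5% in P56 replicate 2. Beside the LOH shares given above, the LOH excess was smallest in P56 replicate 2. The value of 1.92 thus rests mostly on the DCT nuclei of the sample with the smallest excess, and its SE does not show that spread. The count over DCT fell to 11 of 33 tested without P56 replicate 2 (7.81% of all peaks) and was 9 of 48 with DESeq2 (4.12%). That over CNT fell to 25 of 30 without P56 replicate 2 (9.74%).

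The members lower in LOH lay at neighbouring genes. They numbered 4 against PCT (38.3% of all peaks lower in LOH), 4 against PST (37%), 3 against DCT (12%) and 1 against CNT (16.6%). The peak 43.0 kb upstream of Umod was at -4.02 ± 0.18 against PCT and -3.42 ± 0.25 against PST, the peak 46.9 kb upstream at -2.96 ± 0.21 and -2.12 ± 0.30, and the peak 42.1 kb upstream of Egf, in Lrit3, at -1.47 ± 0.25 and -1.88 ± 0.25. The count against DCT was 1 without P56 replicate 1 (9.11% of all peaks lower) and 0 without P56 replicate 2 (6.27%), and the single call against CNT, 46.9 kb upstream of Umod (-0.95 ± 0.39), was lost without P56 replicate 2.

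Opening together with the start peak was described within single LOH nuclei by a Mantel-Haenszel odds ratio over 10 depth strata, for peaks open in at least 2% of LOH nuclei, with no value from other peak pairs beside it. The Egf start had an odds ratio above 1 with 24 of 28 peaks at P21, with 18 of 28 and 28 of 31 in the P56 samples, and with 6 of 8 and 2 of 8 in the P0 samples. The medians were 1.90 at P21, 1.21 and 1.33 at P56, and 1.40 and 0.857 at P0. With the peak 12.2 kb upstream it was 1.63 at P21 and 1.24 and 2.34 at P56. The Umod start was above 1 with 10 of 13 peaks at P21, 6 of 9 and 9 of 11 at P56, and 4 of 6 and 6 of 7 at P0, and with the peak 17.5 kb downstream the odds ratio was 1.86 at P21 and 1.47 and 2.15 at P56. Residual depth within a stratum was not removed, and its part was not tested.

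Start peaks of other genes were read from lists written by hand. Of all tested peaks over protein-coding starts, 27.4% were higher and 23.1% lower in adult LOH. These shares moved with the libraries and the depth: 4.99% were higher and 15.2% lower without P0 replicate 1, 8.21% and 16.1% without P0 replicate 2, and 38.7% and 23.7% without P56 replicate 1. They were 8.79% and 19.0% without the filter. With nuclei thinned they were 2.63% and 11.7%, and their median log2 fold change went from 0.18 to -0.15. Of 13 genes of thick limb transport and its regulation, 12 had a start peak that was higher in the adult and none was lower, with a median log2 fold change of 1.37. The count was 9 and 10 without P0 replicate 1 and 2, and 3 of 12 tested with nuclei thinned, none lower. Those higher included Slc12a1 (2.53 ± 0.27), the tight junction gene Cldn16 (1.69 ± 0.30) and the potassium channel gene Kcnj1 (1.54 ± 0.23), while Cldn19 was not called (0.14 ± 0.27). Both start peaks of Umod and Egf had larger values than each of these 3, with no test of that difference.

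For the 3 lists that follow, the shares of all tested peaks over protein-coding starts were 27.4% higher and 23.1% lower (2.63% and 11.7% thinned). Among the 10 receptors and other ligands of the EGF family, 9 were tested in LOH, 4 were higher and 3 lower. These counts were 0 and 1 without P0 replicate 1, 1 and 2 without P0 replicate 2, and 0 and 1 of 7 thinned. The ligand genes Ereg (-2.81 ± 0.76), Tgfa (-2.04 ± 0.29) and Areg (-1.19 ± 0.31) were the lower ones. The Tgfa start peak was open in 19.8% and 21% of P0 LOH nuclei and in 1.92 to 3.30% of those of the adult samples. The receptor gene Erbb4 was higher (0.95 ± 0.26). Of 6 genes for the release of the 2 proteins and for magnesium handling, 3 were higher and 1 lower (1 and 1 without P0 replicate 1, none of 5 thinned): Hpn, which encodes hepsin (1.35 ± 0.23), Cnnm2 (1.01 ± 0.23) and the protease gene Adam10 (0.75 ± 0.26) were higher, and Trpm6 was lower (-1.90 ± 0.38). Of 12 factors of the tubule 7 were higher and 1 lower (2 and 0 of 10 thinned), with Esrrb (2.04 ± 0.24), Tfap2b (1.43 ± 0.28), Irx2 (1.41 ± 0.24) and Irx1 (1.18 ± 0.24) as the largest among those called.

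Gene activity, the CPM summed over the peaks of the gene body and 2 kb upstream, was highest in LOH for both genes. For Egf the P56 mean was 446 in LOH, 206 in DCT, 162 in Podo, 54.4 in PCT and 50.2 in Endo. For Umod it was 167 in LOH, 62.2 in the cluster named NP, in which 0.00% and 1.89% of P56 nuclei had an open Six2 start, 60.2 in DCT and 37.1 in IC. Over the 13 clusters at P56, the genes most like Umod among 15520 included Nr2f6 (Pearson r = 0.93 of log2(activity + 1)), Tapt1 (0.93), Slc5a3 (0.90) and Esrrb (0.90), with Egf at rank 81 (0.80). Those most like Egf were Tenm2 (0.91), Kcnn2 (0.88), Gp2 (0.87), Slc5a3 (0.87) and Gm49711 (0.87), with Umod at rank 29. These are values over 13 clusters that share their libraries, and Gp2 is the neighbour of Umod whose start lies in a peak of the Umod window. The activity of Gp2 was itself highest in LOH, at 102 against 24.5 in DCT.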

How the data were processed

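The snATAC-seq reads of 5 samples were aligned by the authors to mm10 (GRCm38) with Cell Ranger ATAC 1.1.0, nuclei were filtered and clustered with SnapATAC and Harmony, and MACS2 peaks were called per cell type on pooled nuclei, then merged. The deposited matrix holds counts binarized by the authors, 1 where a nucleus had a fragment in a peak, with no scaling for depth. Cluster names and peak positions were used as deposited. How doublets were treated is not given in the sources used here, and no doublet caller was run here. The single-cell RNA and bulk ATAC data of the study were not used here, and gene models were those of GENCODE M21.

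Open calls were summed per sample and cluster (at least 20 nuclei) and tested over all peaks with edgeR 4.0.16 (TMM, filterByExpr with a minimum count of 10 and total of 15, glmQLFTest, Benjamini-Hochberg at 0.05) in R 4.3.3. Adult (P21 and P56) was compared with P0 within LOH, DCT, CNT, PCT, PST and PC, and LOH with PCT, PST, DCT and CNT within the adult samples, with the sample as a term. The code was tested on simulated data. DESeq2 1.42.0, DESeq2 size factors, no filter, nuclei thinned to 1000 open peaks (811 shallower nuclei left out), other sample sets and each sample left out were the alternatives. The interaction, the values over protein-coding starts and the list counts under the alternatives were added after the data had been seen.

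Peaks named were those over a start, the 5 with the highest P56 share in LOH and the 5 in DCT of each locus, and up to 3 called peaks per locus, direction and contrast with the largest fold change. Of each pathway list, up to 4 called genes with the largest change in LOH were named. A gene that this rule and the likeness ranking pick is not reported here. The Egf peaks 14.5 kb upstream and 58.8 kb downstream, the exceptions to a count and Cldn19 lie outside this rule and were chosen after their values were seen. The members and lists were chosen with earlier results of these data known. Total open calls per sample ranged from 16980853 to 43794155. Wilson intervals (95%) and counting intervals cover counting error only.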

Additional observations from a re-analysis of the deposited data

Results flagged for a closer look

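Only peaks over a start, or among those of each locus with the highest P56 share in LOH, were listed here. Of these, 9 rose more between P0 and the adult samples in LOH than in PCT (edgeR, adjusted over all peaks). The interaction test was chosen after the data had been seen. Choosing peaks by a high share in adult LOH itself favours a larger rise in LOH, so this count is no test of the set. The same holds for the contrasts with PST and CNT below. At Umod the difference in log2 fold change was 6.39 at the peak 17.5 kb downstream, 3.01 over exons 3 and 4, 1.76 at the start, 1.60 at 32.2 kb upstream and 1.71 at 34.2 kb upstream. At Egf it was 6.13 in intron 11, 3.48 at 10.1 kb downstream, 2.66 at the start and 5.98 at 12.2 kb upstream. The 27 calls against PCT were 3 of 28 tested with nuclei thinned (3.37% of all peaks). At the peak over exons 3 and 4 of Umod and at that in intron 11 of Egf, the sign itself was opposite, higher in adult LOH and lower in adult PCT. The PCT fall over exons 3 and 4 was near the limit of a call (-1.22 ± 0.43, edgeR adjusted p = 0.043). Of the 26 members tested in PCT, edgeR called 4 lower and DESeq2 called 1 lower.

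Against PST the difference was 3.24 over exons 3 and 4 of Umod, 1.80 at the Umod start, 1.29 at 32.2 kb upstream of Umod, 3.63 in intron 11 of Egf, 3.70 at 10.1 kb downstream of the Egf start and 2.04 at the Egf start. Of the 13 calls in this contrast 2 were also called when either P0 sample was left out (0.372% and 0.337% of all peaks) and 0 with nuclei thinned (edgeR, 2 of 23 at an unadjusted p under 0.05, and 0.0476% of all peaks called), where the value 32.2 kb upstream turned to -0.059. Against CNT it was 3.06 in intron 11 of Egf and 3.15 at 10.1 kb downstream of the Egf start, in a contrast whose count of 6 became 0 without P0 replicate 1 and 1 without P0 replicate 2 or with DESeq2.

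Of the 664 nuclei outside the 13 main clusters, those of a further cluster that carries a proximal tubule name were open both at peaks that were open in LOH and at peaks that were open in PCT. In P56 replicate 2, 32.1% of its 131 nuclei were open at the Umod peak 17.5 kb downstream and 38.2% at the Egf peak 12.2 kb upstream. In the main PCT cluster of the same sample, 0.435% and 0.696% of nuclei were open at these peaks. Across the P0, P21 and P56 samples the cluster's shares were 0.00%, 0.00%, 13.5%, 10.4% and 32.1% at the Umod peak. At the Umod peak 43.0 kb upstream, which was open in PCT and PST, they were 3.80%, 5.13%, 28.8%, 10.4% and 38.2%, and the median nucleus of the cluster in P56 replicate 2 had 9198 open peaks.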

How the results depend on the processing

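Percentages in brackets in this paragraph are the shares of all peaks called in the same fit and direction. In LOH, 49 members higher in the adult became 17 of 19 tested after thinning (12.1%). Over the alternatives, those higher in DCT numbered 1 of 5 with DESeq2 (0.343%) and 7 of 58 without the filter (0.384%). In PCT 11 of 59 were higher without the filter (11.2%) and 1 of 11 thinned (6.55%). Lower in PCT were 1 of 26 with DESeq2 (10.7%), 2 of 59 without the filter (5.85%) and 0 of 11 thinned (5.32%). In PST 3 of 14 were higher with DESeq2 (6.25%) and 10 of 56 without the filter (5.93%). Thinned, 0 of 3 were (0.918%), with 2 at an unadjusted p under 0.05 by edgeR. In PC 1 of 8 was higher with DESeq2 (6.88%) and 1 of 8 with the replicate block (9.81%). Without the filter 0 of 57 were (edgeR, 6 at an unadjusted p under 0.05), where 0 of all 278470 peaks were called. In DCT, CNT and PC thinning left 0 members to test and so 0 calls. Members higher in LOH than in PST were 20 of 27 thinned (23.5%), and those higher than in CNT 9 of 11 thinned (5.17%). Higher than in DCT were 12 of 14 thinned (5.56%), 9 of 48 with DESeq2 (4.12%), 23 of 48 with all 5 samples (8.99%) and 19 of 42 without the sample term (8.04%). Those below DCT numbered 0 with DESeq2, unfiltered, thinned or with all 5 samples and 1 without the sample term (1.31 to 6.82%), and those below CNT 0 in each of these 5 (2.15 to 11.9%). The interaction thinned gave 3 of 28 against PCT (3.37%) and 0 of 23 against PST (0.0476%), the latter with 2 at an unadjusted p under 0.05 by edgeR. Against CNT it gave 1 of 42 with DESeq2 (0.173%) and 1 of 59 without the filter (0.137%). Thinned, it gave 0 of 11 against CNT (0.0156%), with 0 at an unadjusted p under 0.05 by edgeR. The lower call became 0 with DESeq2 or thinned against PCT, PST and CNT and 0 without the filter against PST and CNT. By CPM LOH led 10 Umod peaks. The ranges below include fits with 1 P0 sample left, where fewer of all peaks were called too. With an adult sample left out, 22.6 to 25.8% of all peaks were higher in LOH and 1.72 to 4.21% in DCT. These shares were 10.3 to 16.8% in CNT, 15.1 to 21.2% in PCT, 8.77 to 10.9% in PST and 7.6 to 17.1% in PC. LOH over PCT had 25.7 to 31.7%, over PST 26.5 to 28.7%, over DCT 7.81 to 14.2% and over CNT 9.74 to 16.5%. With 1 sample left out the counts ranged from 39 to 48 in LOH, 1 to 4 in DCT, 2 to 3 in CNT, 1 to 6 (lower 1 to 3) in PCT, 0 to 5 in PST and 0 to 4 in PC, from 42 to 45 (lower 4 to 4) for LOH over PCT, 33 to 38 (4 to 5) over PST, 11 to 36 (0 to 3) over DCT and 25 to 38 (0 to 1) over CNT, and from 20 to 31, 2 to 14 and 0 to 6 for the interactions with PCT, PST and CNT (lower 0 to 1 in each), and LOH led 21 to 24 Egf and 6 to 7 Umod peaks. Of 1786 alternative values of single peaks, 1522 kept direction and call, 260 lost the call and 4 reversed: the Egf peak over exon 6 thinned, in LOH (-0.057) and against PST (-0.23), the Umod peak 34.2 kb upstream against PCT with all 5 samples (-0.10), and the Umod peak 32.2 kb upstream in the PST interaction thinned (-0.059). The cause was not tested. The replicate numbers do not pair the samples (correlations of same-numbered deviations 0.034 to 0.098), and with the replicate block 48 of 50 members were called in LOH, all 48 among the 49 called without it, 51 values of single peaks kept their call and 2 lost it. Few nuclei limit DCT at P0 (51 and 57).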

Other observations

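A second cluster outside the 13, named for NP and LOH together, held 1 nucleus at P0, 56 at P21 and 92 and 69 in the P56 samples. Its nuclei were open at the Umod peak over exons 3 and 4 in 0.00% at P21 and 13% and 27.5% at P56, and at the Umod start in 8.93%, 5.43% and 13%.

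Within the Egf window, the peaks in intron 16 and over exon 18 were open in Podo beside LOH. The former, 56.3 kb downstream, was open in 12.4% and 11.6% of Podo nuclei at P0, 4.26% at P21, and 5.10% and 15.4% in the P56 samples, and in 11.9% and 14.9% of the nuclei of the cluster named NP at P0 against 2.22 to 3.85% in the adult samples, where the Six2 start was open in at most 1.89% of that cluster. The latter, 58.8 kb downstream, was open in 5.86% and 8.01% of Podo nuclei at P0 and in 4.26%, 10.2% and 12.8% of the adult ones. In LOH the former was open in 5.20% and 6.29% at P0 and in 3.55%, 3.55% and 8.73% in the P21 and P56 samples, and the latter in 1.26% and 1.07% at P0 and in 6.09%, 4.89% and 12.0%. Podo held 47 nuclei at P21 and 39 in P56 replicate 2, so these shares rest on few nuclei.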
